A study of Homo sapiens with 6 samples.

Results

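The genes described here are 49 genes of DNA replication and mitosis, chosen by name as a list of proliferation genes. Earlier results of these data were known when the list was made. All 49 were read on the arrays, out of 11963 genes in all, by 80 of the 19065 probe sets that carry a single gene symbol. They are described as 17 replication genes, 9 regulators (transcription factors, cyclins, CDK1 and the checkpoint kinase CHEK1) and 23 mitosis genes. Total RNA of 2 human breast cancer cell lines was hybridized to Affymetrix arrays, 3 arrays per line. SUM44 is an invasive lobular breast carcinoma line, positive for estrogen and progesterone receptors per the labels, taken at passages 74, 75 and 76. LCCTam is its tamoxifen-resistant variant, taken at passages 8, 9 and 10 and grown with 500 nM 4-hydroxytamoxifen, the active metabolite of the antiestrogen tamoxifen. Both lines were grown in SFIH medium, based on Ham's F12, and harvested short of confluence. The drug was present in every LCCTam culture and named for no SUM44 culture, so line and drug cannot be told apart. Whether LCCTam is 1 clone, and whether the passages were independent cultures, is not stated in the labels. The p-values therefore cover the scatter among these arrays, which may be technical.

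Dividing cells make most of these transcripts in waves. Before S phase the E2F factors switch on the genes of the MCM helicase, its loaders and the enzymes that supply deoxynucleotides. Toward mitosis the B-MYB and FOXM1 factors, together with the release of the DREAM repressor complex, switch on cyclin B, the mitotic kinases, kinesins and kinetochore proteins. In estrogen receptor positive breast cancer cells, estrogen drives entry into this cycle and antiestrogens hold cells in G1. In bulk RNA, fewer cycling cells and less RNA per cycling cell cannot be told apart.

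All values are log2 expression values made by the authors with RMA. The lines carried luminal epithelial markers, with all 9 listed markers, keratins, GATA3 and EPCAM among them, at or above percentile 88.3 of all genes, while the 3 basal genes measured lay between percentiles 19.3 (KRT14) and 49.9 (EGFR). The 5 leukocyte genes lay between percentiles 18.7 (PTPRC) and 78.0 (LCP1), and the 8 fibroblast genes between 0.777 (LUM) and 56.2 (COL1A1). Of these lists' genes the collagen gene COL3A1 averaged 8.64 in SUM44 and 4.22 in LCCTam. Of the 9 luminal markers 0 rose and 2 fell in LCCTam by the test described below, where 5.83% of all genes fell. ESR1 averaged 12.74 in SUM44 and 11.08 in LCCTam (limma adjusted p = 0.00124), and TFF1 11.82 and 10.36 (limma adjusted p = 0.0257). Array medians lay between 5.92 and 5.97. The 75th percentile was 7.50 at LCCTam passage 10 and 7.68 to 7.78 on the other arrays. LCCTam passage 10 differed from the other arrays in RNA quality: the 3' minus 5' difference of the actin control was 1.92 there, and 0.90 to 1.15 on the other arrays. For SUM44 passages 74, 75 and 76 that difference was 1.15, 0.90 and 0.98.

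None of the 49 members passed the test between the lines. With limma, 0 of 49 members had a Benjamini-Hochberg adjusted p under 0.05 over all genes, in either direction, where 7.92% of all genes did (5.83% lower and 2.09% higher in LCCTam). At an unadjusted p under 0.05 there were 3 members, all lower in LCCTam (CHEK1, TOP2A and BUB1), against 23.1% of all genes. CHEK1 was the 1 member whose SUM44 and LCCTam values stood apart, lower in LCCTam, where 29.8% of all genes stood apart and 16.6% did so with LCCTam lower. In the fit of all named probe sets 0 of the 80 member probe sets passed, where 7.37% of probe sets passed. At an unadjusted p under 0.05 there were 6 member probe sets, against 4322 of the 19065 named probe sets. Of the 80 member probe sets 3 stood apart between the lines, against 29.6% of named probe sets. Of the 31 probe sets that did not stand for their gene, 27 differed in the same direction as the one that did. The submitters' design text describes a selection by at least 2-fold change, an unadjusted p under 0.05 and an intensity floor. It took 0 members and 2.46% of genes.

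The median difference, LCCTam minus SUM44, was -0.066 over the members and 0.017 over all genes. Replication genes had a median difference of 0.19, with 11 of 17 above 0. Mitosis genes had a median difference of -0.28, with 18 of 23 below 0. Standard errors ran from 0.14 to 0.72 with a median of 0.27, more than the 0.12 over all genes. For 27 of the 49 members the 95% interval of the difference lay within 1 log2 unit of 0, which is 2-fold. For the others a 2-fold difference in at least 1 direction lay inside the interval, so these data do not show that the lines express them alike.

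**Figure D1:**
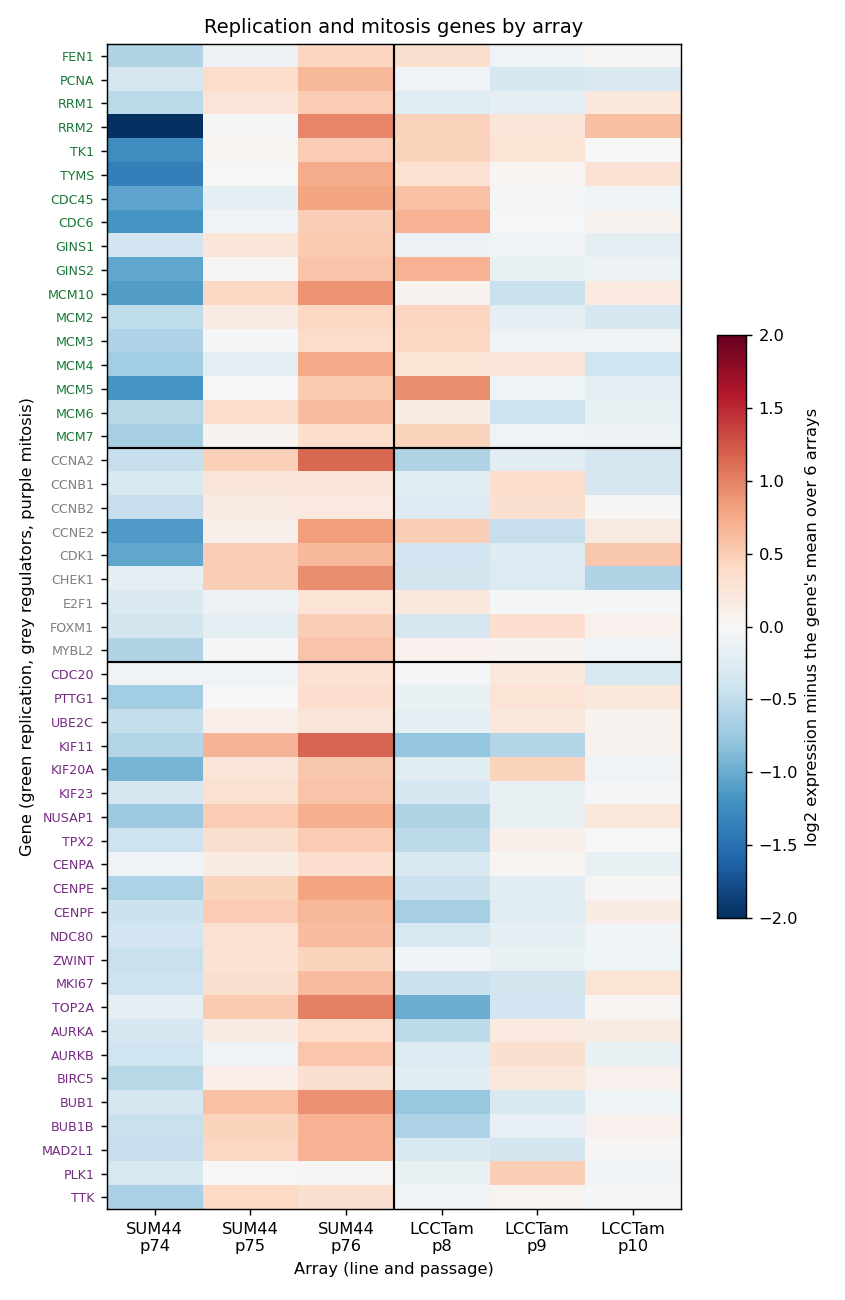
Each row is 1 of the 49 genes (names in green, replication; grey, regulators; purple, mitosis) and each column 1 array; colour gives log2 expression minus that gene's mean over the 6 arrays. The SUM44 passage 74 column is below the other SUM44 columns for all 49 genes, and in LCCTam passage 8 most replication genes are above and most mitosis genes below the other LCCTam arrays.

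Within SUM44, passage 74 had the lowest level of every member. This held for 49 of 49 members, where 32.9% of all genes were lowest at passage 74. Passage 76 had the highest level for 48 of 49, where 32.8% of all genes were highest there; the exception was TTK, the spindle checkpoint kinase, highest at passage 75. Passage 76 minus passage 74 had a median of 1.06 over the members, or 2.08-fold, and of -0.017 over all genes. It was at least 1 log2 unit for 30 of the 49 members and for 1.2% of all genes. These are single arrays, so the difference between passages has no replicate check and no test. By probe set, 78 of the 80 member probe sets were lowest at passage 74, and the remaining 2 were dim probe sets of BUB1. It was also 49 of 49 after quantile normalization, after centring each array on its median and with the mean of a gene's probe sets, and 32 of 32 once probe sets ending in _x_at or _s_at were dropped. Within SUM44 the actin difference given above was highest at passage 74, while that of the GAPDH control was highest at passage 76 (0.13, 0.092 and 0.26 at passages 74, 75 and 76). Their part in this order was not tested.

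The spread within SUM44 exceeded the difference between the lines. The SD over the SUM44 arrays had a median of 0.56 over the members, 0.30 in LCCTam, and it was the larger SD for 45 of 49 members. Over all genes the medians were 0.11 and 0.16, and SUM44 had the larger SD for 36.6%. The range over SUM44 passages exceeded the absolute line difference for 49 of 49 members, and for 7141 of the 11963 genes. The LCCTam mean lay inside the SUM44 range for 44 of 49 members, and for 36.0% of all genes.

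**Figure D2:**
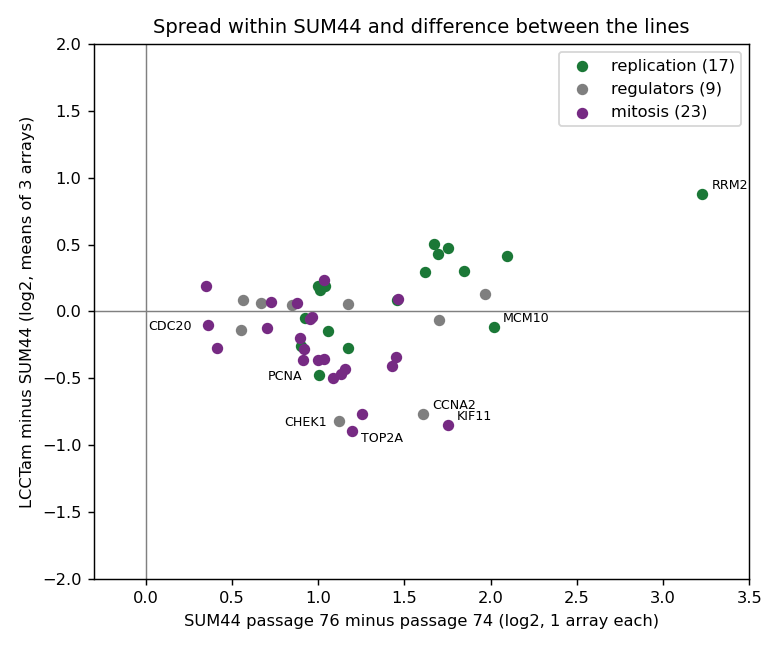
Each point is 1 gene: the horizontal axis is SUM44 passage 76 minus passage 74 (log2, 1 array each) and the vertical axis LCCTam minus SUM44 (log2, means of 3 arrays). All 49 genes lie right of 0, with RRM2 at 3.23, while the line differences run from -0.89 to 0.88.

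Among the replication genes, RRM2 moved furthest. RRM2 encodes the small subunit of ribonucleotide reductase, which makes deoxynucleotides and is short-lived outside S phase. Its level was 7.55, 9.77 and 10.78 at SUM44 passages 74, 75 and 76, and 10.27, 10.05 and 10.41 at LCCTam passages 8, 9 and 10. The low array was SUM44 passage 74, and the LCCTam values fell between those of passages 75 and 76. Passage 76 was 9.36-fold above passage 74, the second largest difference in this direction of 11963 genes (rank 2). The line difference was 0.88 (SE 0.72, limma adjusted p = 0.519), with a 95% interval from -0.83 to 2.58. The other RRM2 probe set gave the same picture, at 6.82, 8.83 and 9.93 in SUM44 and 9.26, 9.23 and 9.72 in LCCTam.

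The other enzymes of nucleotide supply and the fork followed the same order in SUM44. TYMS, thymidylate synthase, was at 8.12, 9.48 and 10.22 over SUM44 passages 74 to 76 and at 9.78, 9.53 and 9.77 over LCCTam passages 8 to 10. TK1, thymidine kinase, was at 6.98, 8.27 and 8.73 in SUM44 and 8.68, 8.51 and 8.23 in LCCTam, with a line difference of 0.48 (SE 0.41, adjusted p = 0.541). In both genes LCCTam lay within the SUM44 values. PCNA, the sliding clamp of the DNA polymerases, went the other way between the lines. It was at 9.95, 10.65 and 10.95 in SUM44 and at 10.21, 9.94 and 9.99 in LCCTam, a difference of -0.47 (SE 0.24, adjusted p = 0.304). All LCCTam arrays were near SUM44 passage 74 and below the later passages. The large ribonucleotide reductase subunit gene RRM1 and the flap endonuclease gene FEN1 differed by -0.15 and 0.19 between the lines, and by 1.06 and 1.04 between SUM44 passages 76 and 74. A second RRM1 probe set differed by -0.53 between the lines (adjusted p = 0.272).

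None of the 11 origin and helicase members passed between the lines, and the 95% interval lay within 1 log2 unit of 0 for 6 of 11. MCM5, a subunit of the ring-shaped MCM2 to MCM7 helicase, was at 7.75, 8.94 and 9.44 in SUM44 and at 9.85, 8.84 and 8.72 in LCCTam. Its highest array was LCCTam passage 8 and its lowest SUM44 passage 74, and the line difference was 0.43 (SE 0.47, adjusted p = 0.635). CDC6, which loads the helicase onto origins, was at 5.18, 6.29 and 6.85 in SUM44 and at 7.05, 6.35 and 6.43 in LCCTam. It too was highest at LCCTam passage 8, and the line difference was 0.50 (SE 0.41, adjusted p = 0.517). Over the 11 origin and helicase genes the line differences ran from -0.27 (MCM6) to 0.50 (CDC6). Between SUM44 passages 76 and 74 they differed by 0.90 (GINS1) to 2.02 (MCM10). GINS1 and GINS2 belong to the GINS complex and CDC45 joins it to form the active helicase; CDC45 was 3.59-fold and GINS2 3.07-fold higher at passage 76 than at passage 74. MCM10, which helps start the helicase, was 4.05-fold higher.

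The regulators included the only member without overlap between the lines. CHEK1 encodes the kinase that holds the cell cycle when replication forks stall. It was at 5.60, 6.29 and 6.71 at SUM44 passages 74 to 76 and at 5.42, 5.52 and 5.20 at LCCTam passages 8 to 10. Every LCCTam value lay below every SUM44 value, the nearest being SUM44 passage 74. The difference was -0.82 (SE 0.27, unadjusted p = 0.0173, limma adjusted p = 0.117), or 1.76-fold lower, with a 95% interval from -1.45 to -0.19. The second CHEK1 probe set differed by -0.63 (limma adjusted p = 0.257 over named probe sets), and its values overlapped.

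CCNA2, cyclin A2, which acts from S phase to early mitosis, was at 6.84, 7.78 and 8.44 in SUM44 and at 6.70, 7.08 and 6.96 in LCCTam. The LCCTam arrays were close to SUM44 passage 74 and below passages 75 and 76. The difference was -0.77 (SE 0.37, adjusted p = 0.269). CCNE2, cyclin E2, which acts with CDK2 at the entry to S phase, varied by 1.96 between SUM44 passages 76 and 74 and by 0.13 between the lines, while its second probe set differed by -0.27 and the mean of both by -0.072. CDK1, the kinase of cyclins A and B that drives mitosis, was at 8.95, 10.49 and 10.65 in SUM44 and at 9.62, 9.74 and 10.53 in LCCTam. CDK1 differed by -0.066 between the lines (0.00061 after quantile normalization), and its cyclins CCNB1 and CCNB2 by -0.14 and 0.061. The transcription factor genes E2F1, MYBL2 (B-MYB) and FOXM1 differed by 0.088, 0.057 and 0.049 between the lines, adjusted p = 0.787, 0.925 and 0.932. The FOXM1 probe set carries the suffix _x_at and can cross-hybridize. Each factor was lowest at SUM44 passage 74, by 0.56, 1.17 and 0.85 below passage 76.

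**Figure D3:**
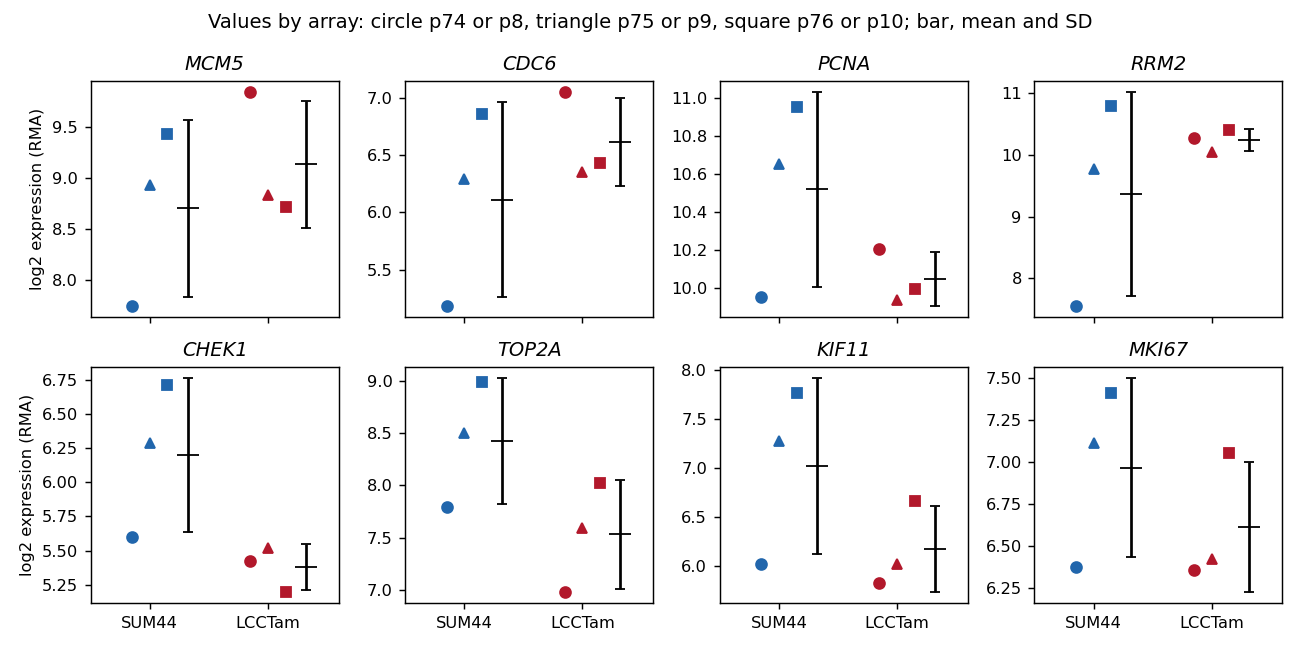
Log2 expression of 8 genes on each array (blue, SUM44; red, LCCTam; circles, passages 74 or 8; triangles, passages 75 or 9; squares, passages 76 or 10), with the mean and SD of 3 arrays beside the points; the axes do not start at 0 and differ between panels. RRM2 runs from 7.55 to 10.78 within SUM44, and CHEK1 is the gene whose lines do not overlap.

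Among the mitosis genes, TOP2A, KIF11 and BUB1 had the lowest line differences, none past the test. TOP2A, the topoisomerase that untangles and condenses mitotic chromosomes, was at 7.79, 8.50 and 8.99 in SUM44 and at 6.98, 7.59 and 8.02 in LCCTam. Only LCCTam passage 10 reached into the SUM44 range. The difference was -0.89 (SE 0.35, unadjusted p = 0.0387, adjusted p = 0.186), with a 95% interval from -1.73 to -0.061. The second TOP2A probe set differed by -0.99 without overlap (adjusted p = 0.0867, the lowest of the 80 member probe sets). MKI67, which encodes the proliferation marker Ki-67, was at 6.38, 7.11 and 7.41 in SUM44 and at 6.35, 6.42 and 7.05 in LCCTam. LCCTam passage 10 was near SUM44 passage 75, and the other LCCTam arrays were at the level of SUM44 passage 74. The difference was -0.35 (SE 0.29, adjusted p = 0.521). The other 3 MKI67 probe sets differed by -0.74, -0.74 and -0.49.

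KIF11, the kinesin that pushes the spindle poles apart, was at 6.01, 7.28 and 7.76 in SUM44 and at 5.82, 6.01 and 6.66 in LCCTam, a difference of -0.85 (SE 0.44, adjusted p = 0.309). The LCCTam arrays lay below SUM44 passages 75 and 76. KIF23, a kinesin of the midzone that cytokinesis needs, differed by -0.36, and KIF20A, of the same structure, by 0.091. The spindle assembly factors TPX2 and NUSAP1 differed by -0.28 and -0.34, and a second NUSAP1 probe set by -0.72 (limma unadjusted p = 0.031, adjusted p = 0.168 over named probe sets). All 5 kinetochore and centromere genes were below 0, from -0.20 (ZWINT) to -0.50 (CENPF). CENPF was at 8.60, 9.53 and 9.68 in SUM44 and at 8.36, 8.78 and 9.17 in LCCTam (adjusted p = 0.399), and CENPE, the kinesin that aligns chromosomes, differed by -0.41 (adjusted p = 0.531). The CENPA probe set carries the suffix _x_at, and it differed by -0.28.

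Of the mitotic kinases and checkpoint genes, BUB1 had the largest difference. BUB1, a kinetochore kinase of the spindle checkpoint, was at 6.73, 7.66 and 7.99 in SUM44 and at 6.32, 6.76 and 6.98 in LCCTam. The LCCTam arrays lay around SUM44 passage 74, and the difference was -0.77 (SE 0.33, unadjusted p = 0.0499, adjusted p = 0.216). Of its other probe sets 1 differed by -0.52, and 3 dim ones by -0.043 to 0.079. Its partner BUB1B differed by -0.47 (adjusted p = 0.422) and the checkpoint protein gene MAD2L1 by -0.43. The kinase genes AURKA, AURKB, PLK1 and TTK differed by -0.12, -0.056, 0.19 and -0.042 (TTK by 0.047 after quantile normalization), and BIRC5, survivin, which sits in a complex with Aurora B, by 0.060. PLK1 and CDC20 varied least between SUM44 passages 76 and 74, by 0.35 and 0.36. CDC20, the activator of the anaphase-promoting complex, was at 8.36, 8.36 and 8.72 in SUM44 and at 8.39, 8.64 and 8.11 in LCCTam, with a difference of -0.10 (adjusted p = 0.763). UBE2C, the ubiquitin-conjugating enzyme of that complex, and its substrate PTTG1, securin, differed by 0.071 and 0.23 (adjusted p = 0.873 and 0.64). The PTTG1 probe set carries the suffix _x_at.

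Within LCCTam the replication and the mitosis genes parted at passage 8. Replication genes were highest at passage 8 for 13 of 17, against 31.5% of all genes. Mitosis genes were lowest at passage 8 for 20 of 23, against 20.9% of all genes. Passage 8 minus passage 9 had a median of 0.50 over replication genes and -0.42 over mitosis genes, and passage 8 minus passage 10 of 0.45 and -0.33. Passage 10, the array with the larger actin difference, was the lowest LCCTam array for 49.4% of all genes. The largest differences from passage 9 were 1.01 for MCM5 and -0.73 for AURKA, the kinase of spindle poles. MCM5, GINS2 and CDC6 were above passage 10 as well, by 1.13, 0.79 and 0.62, while TOP2A, KIF11, NUSAP1 and CENPF were below it by -1.04, -0.84, -0.83 and -0.81. The regulators divided too. CCNE2 was 0.95 above passage 9, and FOXM1, CCNB1 and CCNB2 were at -0.67, -0.59 and -0.59. After quantile normalization 12 of 17 replication genes were highest and 20 of 23 mitosis genes lowest at passage 8. These are single arrays and were not tested.

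**Figure D4:**
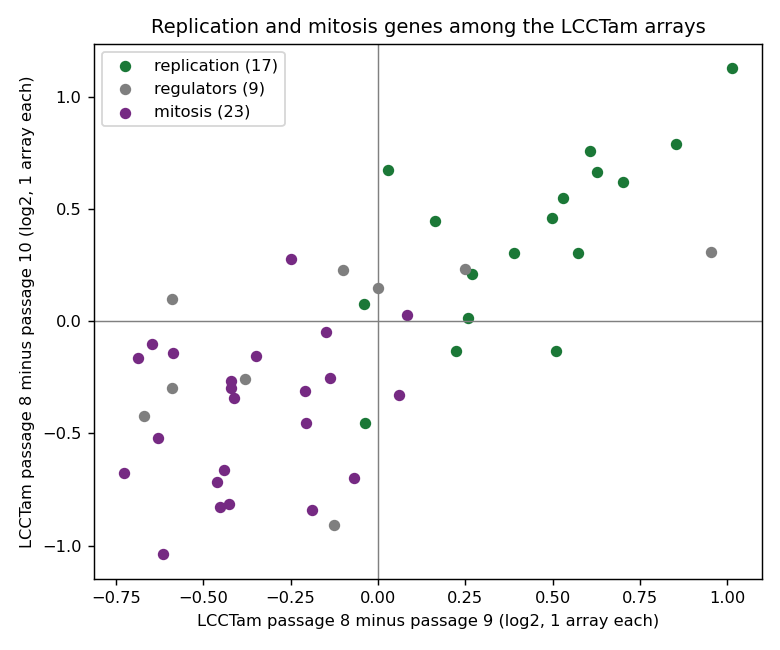
Each point is 1 gene, placed by LCCTam passage 8 minus passage 9 (horizontal) and passage 8 minus passage 10 (vertical), both log2 and 1 array each. Replication genes (green) lie mostly upper right, 13 of 17 above both other passages, and mitosis genes (purple) mostly lower left, 20 of 23 below both.

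E2F is known to act through its own motif, and the DREAM and B-MYB complexes through the CHR. A few promoters of both classes are printed here to show these motifs. Their part in the order of the arrays was not tested. Promoter windows of 300 bases, from 250 before to 50 after the start, were taken from RefSeq on GRCh38.p14 for the 40 members that matched, using the start listed first. The E2F motif was searched as TTTCCCGC, TTTCGCGC, TTTGCCGC or TTTGGCGC, the CHR (cell cycle homology region) as TTTGAA and the CCAAT box as CCAAT, on both strands. Capitals mark matches to any of these in the windows of CDC6 (chr17:40287629-40287928, plus strand), MCM6 (chr2:135876394-135876693, minus strand), PCNA (chr20:5126573-5126872, minus strand), TOP2A (chr17:40417847-40418146, minus strand), KIF11 (chr10:92592880-92593179, plus strand) and RRM2 (chr2:10122489-10122788, plus strand), each written 5′ to 3′ along the gene.
CDC6: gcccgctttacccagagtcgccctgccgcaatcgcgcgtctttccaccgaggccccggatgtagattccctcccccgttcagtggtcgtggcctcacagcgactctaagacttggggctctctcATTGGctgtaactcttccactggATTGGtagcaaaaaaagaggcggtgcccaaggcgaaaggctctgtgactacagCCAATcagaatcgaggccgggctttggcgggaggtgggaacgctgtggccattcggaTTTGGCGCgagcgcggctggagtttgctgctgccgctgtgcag
MCM6: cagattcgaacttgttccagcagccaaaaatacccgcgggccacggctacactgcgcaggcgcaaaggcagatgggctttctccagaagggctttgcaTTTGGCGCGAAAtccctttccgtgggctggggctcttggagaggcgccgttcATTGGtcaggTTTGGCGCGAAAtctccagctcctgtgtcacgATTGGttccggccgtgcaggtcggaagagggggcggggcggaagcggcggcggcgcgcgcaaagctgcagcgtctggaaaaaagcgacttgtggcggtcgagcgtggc
PCNA: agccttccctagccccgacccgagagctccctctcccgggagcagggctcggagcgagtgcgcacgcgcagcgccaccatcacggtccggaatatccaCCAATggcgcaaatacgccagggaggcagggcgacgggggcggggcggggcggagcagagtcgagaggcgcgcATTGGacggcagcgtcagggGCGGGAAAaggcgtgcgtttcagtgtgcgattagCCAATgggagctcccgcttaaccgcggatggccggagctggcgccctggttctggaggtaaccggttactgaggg
TOP2A: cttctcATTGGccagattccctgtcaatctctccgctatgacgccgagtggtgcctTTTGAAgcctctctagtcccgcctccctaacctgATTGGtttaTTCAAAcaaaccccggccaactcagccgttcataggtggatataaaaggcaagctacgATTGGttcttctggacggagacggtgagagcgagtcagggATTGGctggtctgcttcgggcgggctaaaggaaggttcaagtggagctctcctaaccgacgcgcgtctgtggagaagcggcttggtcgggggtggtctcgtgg
KIF11: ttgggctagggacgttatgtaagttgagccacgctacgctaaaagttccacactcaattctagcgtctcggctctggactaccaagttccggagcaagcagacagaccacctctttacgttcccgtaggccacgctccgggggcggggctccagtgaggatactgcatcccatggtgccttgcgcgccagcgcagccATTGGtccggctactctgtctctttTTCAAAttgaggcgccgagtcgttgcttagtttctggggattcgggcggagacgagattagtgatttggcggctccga
RRM2: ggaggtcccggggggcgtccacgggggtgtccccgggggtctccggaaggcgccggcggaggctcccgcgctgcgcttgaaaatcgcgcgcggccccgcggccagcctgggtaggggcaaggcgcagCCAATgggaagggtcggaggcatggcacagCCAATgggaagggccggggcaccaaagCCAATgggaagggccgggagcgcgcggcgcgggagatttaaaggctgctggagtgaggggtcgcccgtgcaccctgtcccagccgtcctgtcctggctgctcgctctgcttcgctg
CDC6 and PCNA hold 1 E2F match each and MCM6 holds 4, which overlap in 2 runs, while none of these 3 windows holds a CHR match. TOP2A holds 2 CHR matches and KIF11 holds 1, each with CCAAT boxes and no E2F match. RRM2, with the largest spread, holds 3 CCAAT boxes and neither of the other motifs in this window.

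Over the matched members, an E2F match was present in 9 of 15 replication promoters, 2 of 7 regulator promoters and 2 of 18 mitosis promoters, against 3.33% of the 27305 promoters of the table. A CHR match was present in 1 of 15 replication promoters (RRM1), 2 of 7 regulator promoters (CCNB2 and CDK1) and 13 of 18 mitosis promoters, against 15.4% of all promoters. A CCAAT box was common to all classes, in 11 of 15, 6 of 7 and 15 of 18, against 35.7% of all promoters. The CHR and CCAAT motifs stood together in 11 of 18 mitosis promoters and in 6.08% of all promoters. Among the 9563 promoters of genes measured on the arrays, 4.88% held an E2F match and 11% a CHR match. A CCAAT box was in 37.3% of these, and CHR with CCAAT in 4.65%. The CHR matches of mitosis genes lay at a median of 29 bases before the start, and the E2F matches of replication genes at 39 bases before it. In 2 cases matches of different motifs overlapped. The E2F and CHR counts in the members were the same when every listed start of a gene was used. A match describes the letters in a window and does not show binding.

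Leaving out 1 array changed the picture between the lines, and that array was SUM44 passage 74. Without it 8 members passed limma's test, all lower in LCCTam: KIF11 (-1.35), CCNA2 (-1.20), BUB1 (-1.13), CHEK1 (-1.12), CENPE (-0.82), MAD2L1 (-0.77), PCNA (-0.76) and NDC80 (-0.65), with adjusted p from 0.0162 to 0.0478. NDC80 encodes the kinetochore protein that grips microtubules. In this fit 6.09% of all genes passed, 4.65% lower. The difference was below 0 for 47 of 49 members, against 28 of 49 with all arrays, and the medians were -0.15 for replication and -0.55 for mitosis genes. RRM2, MCM5 and TK1 then differed by -0.032, -0.052 and -0.031. Passage 74 is the SUM44 array with the lowest level of every member, so its removal raises every SUM44 mean. Leaving out SUM44 passage 76 instead gave 0 members, with 5.36% of genes, and a median of 0.14. Leaving out LCCTam passage 10, the array with the larger actin difference, gave 0 members, with 12.8% of genes. No member passed without SUM44 passage 75 (2.17% of genes) or without LCCTam passage 8 or 9 (2.95% and 3.35%). No member passed after quantile normalization (9.14%), median centring (7.44%) or averaging a gene's probe sets (8.35%). Nor did any without probe sets ending in _x_at or _s_at (7.15%), without the dim genes (13.1%) or with an intensity trend and robust prior (8.1%). Only 32 members were tested without _x_at and _s_at probe sets and 42 without the dim genes, and CHEK1 was not among these 42. With array weights, which counted LCCTam passage 8 and SUM44 passage 75 most (4.02 and 2.88), 15 members passed, all lower, of which 13 were mitosis genes, with CCNA2 and CHEK1. There 32.1% of all genes passed, 16.3% lower. In that fit LCCTam passages 9 and 10 had weights of 0.81 and 0.20. Passage 8 was the lowest LCCTam array for 20 of 23 mitosis genes.

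**Figure D5:**
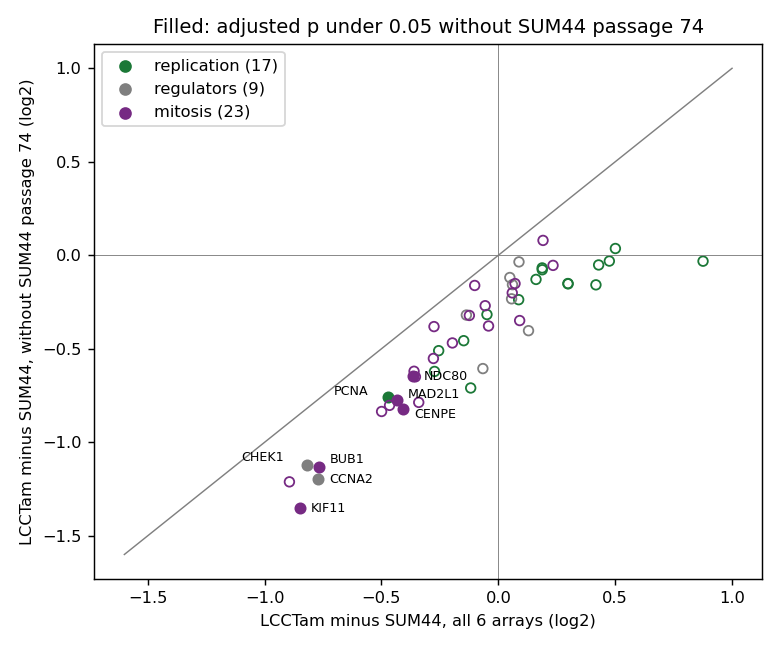
LCCTam minus SUM44 (log2) for each gene with all 6 arrays (horizontal) and without SUM44 passage 74 (vertical), with the line of equal values; filled points have a limma adjusted p under 0.05 without that array. All 49 points lie below the line, and the 8 filled ones are lower in LCCTam.

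Further genes of the same processes, not among the 49, were read from lists. Of 45 other replication genes 0 rose and 2 fell in LCCTam, RFC1 by 0.99 (adjusted p = 0.012) and ORC4 by 0.69 (adjusted p = 0.0238) on the log2 scale, where 5.83% of all genes fell. RFC1 is the large subunit of the clamp loader and ORC4 a subunit of the origin recognition complex. RFC1 was at 6.48, 6.60 and 6.98 in SUM44 and at 5.81, 5.52 and 5.76 in LCCTam, without overlap. Of 59 other mitosis genes 0 rose and 1 fell, the anaphase-promoting complex subunit gene CDC27, by 0.46 (adjusted p = 0.0373). In SUM44, 41 of the 45 and 53 of the 59 were lowest at passage 74, and passage 76 minus passage 74 had medians of 0.76 and 0.97. In LCCTam, 29 of 45 other replication genes were highest and 33 of 59 other mitosis genes lowest at passage 8.

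Of 18 measured regulators of G1 0 rose and 2 fell, beside 5.83% of all genes. CDKN1B, the CDK inhibitor p27, was at 9.01, 9.07 and 9.05 in SUM44 and at 8.09, 8.48 and 8.19 in LCCTam, and fell by 0.79 (adjusted p = 0.0103). CCND1, cyclin D1, was at 10.35, 10.51 and 10.76 in SUM44 and at 9.73, 9.87 and 9.74 in LCCTam, and fell by 0.76 (adjusted p = 0.0131). Both were without overlap, and CDKN1B was nearly level over the SUM44 passages. Of 13 E2F and DREAM genes 0 rose and 1 fell, the repressor E2F6, by 0.52 (adjusted p = 0.0273). Passage 76 minus passage 74 had medians of 0.27 over the G1 list and 0.25 over the E2F and DREAM list. The 6 passing genes of these lists became 0 without SUM44 passage 75, 3 and 2 without LCCTam passages 8 and 9, and 14 and 10 without SUM44 passage 74 and LCCTam passage 10.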

How the data were processed

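Expression was measured on 3 SUM44 and 3 LCCTam arrays, grouped by the line in their titles, which also give the passage. The deposited log2 values were made by the authors with RMA, as the submitters' processing notes state. Its version, the chip definition and whether arrays were processed jointly: not given in the sources used here. RMA is meant to make array distributions alike, though LCCTam passage 10 had a lower 75th percentile than the other arrays. It also compresses differences of dim genes. No detection calls were used here, and the number of arrays limits the precision.

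Probe sets with a single symbol in the platform annotation were named, and symbols updated through Entrez identifiers with RefSeq (GRCh38.p14) for 19053 of 19065. A CENPA probe set shared with another gene was left out. The probe set with the highest mean stood for each gene. LCCTam minus SUM44 was tested by lmFit and eBayes of limma 3.58.1 (R 4.3.3), with p adjusted over all 11963 genes (Benjamini-Hochberg, threshold 0.05); a second fit took all named probe sets. Tested on simulated data for this comparison with 11963 genes, the fit recovered 24% of genes changed by 0.5 on the log2 scale, 78% at 1 and 100% at 2 and 3, and 11 of its 162 calls were false. The changed genes were drawn from all genes, whose standard errors had a median of 0.12. Members had a median of 0.27, so these shares do not give the recovery for members.

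Members and lists were chosen with earlier results of these data known. Values are given for every passing member, MKI67, PCNA, TOP2A, the 2 members with the largest differences in each of 9 role groups, and up to 4 passing genes per other list; further members were named after their values were seen.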

Additional observations from a re-analysis of the deposited data

How the results depend on the processing

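Alternatives changed normalization, centring, array weights, the probe sets of a gene, the filter on dim genes, the variance prior and the arrays used. Genes passing numbered 948; they were 3844 with array weights, 598 without _x_at and _s_at probe sets and 259 (without SUM44 passage 75) to 1527 (without LCCTam passage 10) when 1 array was left out. Named probe sets passing numbered 1405, and 6207, 687 and 382 to 2238 in those settings. Members passing were 0 higher in all settings run, and 0 lower except with array weights (15) and without SUM44 passage 74 (8). Members tested numbered 32 without _x_at and _s_at probe sets and 42 without the dim genes. Member probe sets passing were 27 with array weights, 1 with the dim probe sets left out and 0 to 13 with 1 array left out. With the dim ones left out, 1264 named probe sets passed. Members in the design text's selection were 3 with array weights and 0 to 5 with 1 array left out. Of all 11963 genes that selection took 294, then 333 with array weights and 279 to 335 with 1 array left out. Other genes of the pathway passing numbered 6, 34 with array weights and 0 to 14 with 1 array left out. The cause of these changes was not tested. No paired analysis was possible because the lines share no passage number.

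The median difference of the members ran from -0.35 to 0.14 with 1 array left out and was -0.00064 after quantile normalization; for replication genes the range was -0.15 to 0.45 and for mitosis genes -0.55 to -0.093. Of the 49 members, 19 turned direction without SUM44 passage 74, 8 with array weights and 3 after quantile normalization. With the mean of probe sets 1 turned, and 2 to 10 did when another array was left out. Without _x_at and _s_at probe sets 1 of the 32 members tested turned. None of those that turned had a passing value. Among the members described in full these were MCM5 (-0.052), RRM2 (-0.032), TK1 (-0.031), E2F1 (-0.035), MYBL2 (-0.23) and PTTG1 (-0.054) without SUM44 passage 74, against 0.80, 1.58, 0.84, 0.25, 0.35 and 0.46 without SUM44 passage 76. PTTG1 also turned with array weights (-0.019), and CDC20 without SUM44 passage 76 (0.018) and without LCCTam passage 10 (0.033). SDs of 0.56 among SUM44 arrays limit what 3 arrays can show.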

Other observations

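Among the 50 genes with the largest excess of SUM44 passage 76 over passage 74, 16 were members and 18 were on the lists of other replication and mitosis genes. The largest excess of all was in CPB1, a carboxypeptidase gene of no such list, at 7.03, 9.13 and 11.47 over SUM44 passages 74 to 76 and at 12.70, 12.90 and 12.62 over LCCTam passages 8 to 10. DTL, which helps degrade the licensing factor CDT1 in S phase, was at 6.83, 8.19 and 8.90 in SUM44 and at 8.50, 7.91 and 8.62 in LCCTam. Both were chosen after their values were seen. On the scale of each gene's deviation from its mean over the 6 arrays, the median of replication genes minus that of mitosis genes was 0.73 at LCCTam passage 8, and between -0.28 and 0.060 on the other arrays.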
